A study of Homo sapiens with 40 samples.

Results

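TCF7L2, LEF1, TCF7 and TCF7L1 encode the TCF and LEF family of HMG-box DNA-binding proteins, and the rows of the authors' exon tables that carry their Ensembl identifiers are described here. TCF7L2 had 10 events, TCF7 had 4 and LEF1 had 3, where an event is 1 exon or exon segment with its flanking splice sites. These 17 events, of 16378 in all, covered 12 distinct exons and gave 58 of the 35638 rows of the 5 exon tables. TCF7L1 matched no row and is not analysed here. The genes were chosen by measured values of these tables, namely the changes of TCF7L2 in E1126G on RNA-seq and of LEF1 in R749H on RASL-seq. Values of these 2 comparisons are therefore given as a description for every gene of the family, with no test.

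All groups were cells of the human kidney-derived line HEK293 Flp-in T-REx, which takes up an inducible transgene at a fixed site. Each line carried an α-amanitin-resistant (Amr) form of Rpb1, the large subunit of RNA polymerase II, as wild type (WT) or with the substitution R749H, H1106Y or E1126G. In every group, WT included, doxycycline switched the transgene on for 12 to 16 h, and α-amanitin was then present for 42 h to block the cells' own polymerase. R749H and H1106Y are known as slow and E1126G as a fast form, and the study asked how splicing responds to elongation rate. WT, R749H and E1126G were each sequenced as 2 RNA-seq libraries of polyA+ RNA. All 4 genotypes were measured in 3 libraries each by RASL-seq, in which pairs of probes are ligated on a splice junction and counted. Whether a genotype stands for 1 clone is not stated in the labels.

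TCF and LEF proteins sit on Wnt target genes, recruit TLE corepressors when the pathway is off, and bind β-catenin through their amino-terminal end when it is on. The HMG box recognises DNA, and alternative exons alter the stretch between the β-catenin domain and the HMG box and the tail behind it. In TCF7 and TCF7L2 some tails hold a second DNA-contacting element, the C-clamp, and in TCF7L2 the longest tails also hold binding motifs for the corepressor CtBP.

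Every value below is a pooled value per genotype, computed from the authors' deposited table of that comparison. Inclusion is the ratio of including to skipping reads expressed as a percentage of both, and a log2 change is the mutant ratio over the WT ratio. No value per library and no depth are given, so the error printed beside a change is the one implied by the deposited p-value. The mutants of an assay share the same WT libraries. Each tested comparison with WT thus shares its WT value with a comparison that chose the genes. Its test is therefore not fully independent of that choice. Adjusted p-values are Benjamini-Hochberg values over all events of a table. Probe efficiency differs between junctions, so levels are read within an assay.

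The main feature of the family was a cluster of 3 short exons near the 3′ end of the tested part of TCF7L2. An exon of 51 nt lies on chromosome 10 (GRCh37, plus strand) at 114918426 to 114918476. It is followed by 2 exons of 73 nt each, at 114919679 to 114919751 and at 114920378 to 114920450. All 3 lie between a donor and a far acceptor that bound a span of 7485 nt, from 114917829 to 114925313. The length of 51 nt is a multiple of 3, and 73 nt is not. The map of the TCF7L2 exon cluster shows these positions to scale.

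**Figure D1:**
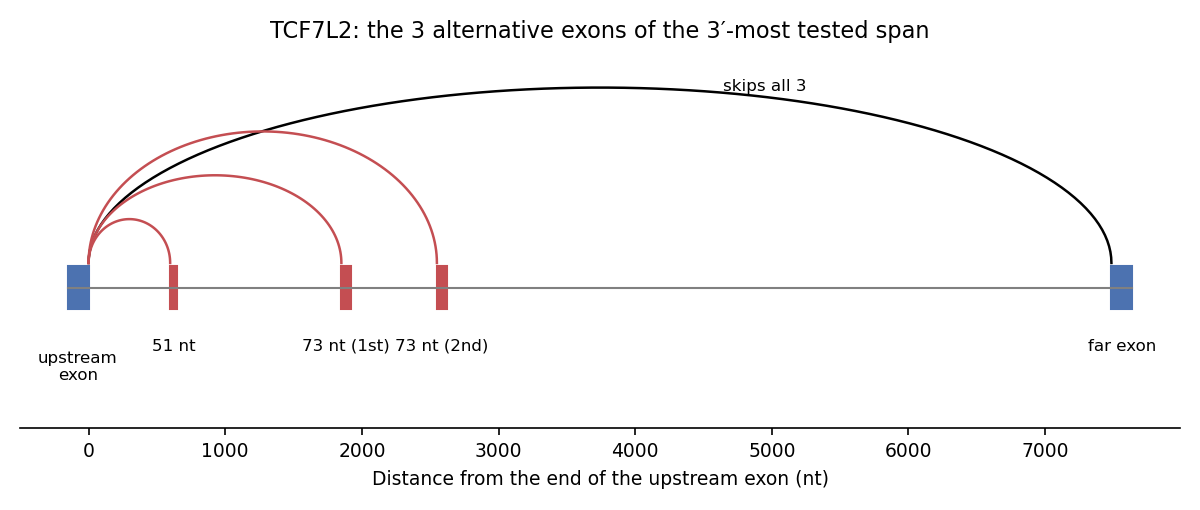
Map of the TCF7L2 span of 7485 nt, drawn to scale along the horizontal axis in nt from the end of the upstream exon. Red boxes are the exons of 51, 73 and 73 nt, blue boxes are the flanking exons at a fixed width that does not show their length, and arcs are splice junctions from the upstream exon; the black arc skips all 3 exons.

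Each of the 3 exons, measured against the far acceptor, had less inclusion in every mutant than in WT. On RNA-seq, inclusion of the 51-nt exon against the far acceptor was 71.1% in WT, 18.2% in R749H and 10.0% in E1126G. On RASL-seq the same exon stood at 43.5% in WT, 16.6% in R749H, 15.6% in H1106Y and 18.2% in E1126G. WT was thus the highest genotype in both assays, and the mutants on RASL-seq lay within a few points of each other. The RNA-seq levels of the cluster may rest on few reads. In R749H on RNA-seq the exon fell by 3.47 on the log2 scale in the authors' deposited table (implied error 0.85, adjusted p = 8.5e-04). On RASL-seq its log2 change in the authors' deposited table was -2.05 in H1106Y (implied error 0.16, adjusted p = 6.0e-38) and -1.79 in E1126G (implied error 0.11, adjusted p = 4.9e-62). The difference between these 2 mutants was -0.27 (SE 0.19) and did not pass (approximate z test, adjusted p = 0.24). That test called 49.2% of the 1984 events shared by the 2 tables.

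Against the far acceptor, the first 73-nt exon had the lowest inclusion value of the 3 in R749H in both assays and in H1106Y. It was also the lowest in E1126G on RASL-seq and in WT on RNA-seq. In E1126G on RNA-seq and in WT on RASL-seq it was not. On RASL-seq these ranks compare different junctions, uncorrected for probe efficiency, and in neither assay were they tested. RNA-seq gave 59.3% in WT, 3.57% in R749H and 14.3% in E1126G against the far acceptor. RASL-seq gave 37.5% in WT, 11.4% in R749H, 5.59% in H1106Y and 17.1% in E1126G. The log2 change in the authors' deposited table was -5.30 in R749H on RNA-seq (implied error 1.21, adjusted p = 2.5e-04). It was -3.34 in H1106Y (implied error 0.16, adjusted p = 2.4e-90) and -1.54 in E1126G (implied error 0.11, adjusted p = 1.1e-40) on RASL-seq. H1106Y lay below E1126G by -1.81 (SE 0.20; approximate z test, adjusted p = 1.7e-18).

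On RASL-seq the second 73-nt exon set H1106Y apart from the other genotypes. It stood at 34.0% in WT, 26.3% in R749H, 6.19% in H1106Y and 22.9% in E1126G. The log2 change in the authors' deposited table was -2.97 in H1106Y (implied error 0.17, adjusted p = 3.0e-69) and -0.80 in E1126G (implied error 0.12, adjusted p = 5.0e-11). These differed by -2.17 (SE 0.20; approximate z test, adjusted p = 2.2e-25). On RNA-seq the levels were 63.3% in WT, 10.0% in R749H and 28.0% in E1126G, and R749H fell by 3.96 in the authors' deposited table (implied error 0.98, adjusted p = 8.8e-04). On RASL-seq the R749H change in the authors' deposited table was smaller, -0.53; this difference between the assays was not tested.

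**Figure D2:**
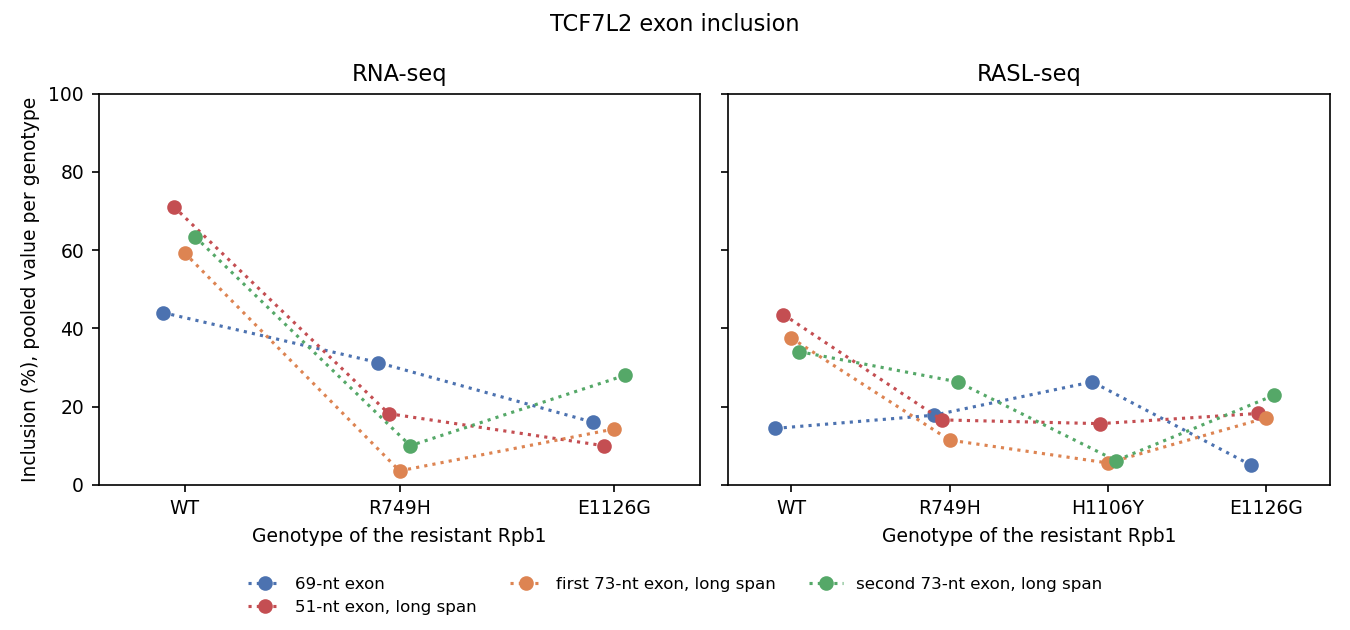
Inclusion (%) of 4 TCF7L2 exons by Rpb1 genotype, RNA-seq on the left and RASL-seq on the right. Each point is 1 pooled value per genotype without an error bar, points are offset sideways for legibility, and dotted lines only join points of the same exon; the 3 exons of the cluster are highest in WT in both panels, while the 69-nt exon is at 26.3% in H1106Y and 5.10% in E1126G.

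Rows of the cluster share reads, so they are not independent. On RASL-seq the log ratio of the 51-nt exon against the second 73-nt exon equals its log ratio against the far acceptor minus that of the second 73-nt exon, for WT and for all 3 mutants to a tolerance of 1e-09. On RNA-seq this relation did not hold. The 2 RASL-seq ratios therefore place 3 choices of 1 donor on a common scale, uncorrected for probe efficiency. In WT the donor was joined to the 51-nt exon in 33.7% of these reads, to the second 73-nt exon in 22.6% and to the far exon in 43.7%. R749H had 12.8%, 22.95% and 64.3% in that order, so the share of the second 73-nt exon lay close to WT while that of the 51-nt exon was lower. H1106Y had 14.8%, 5.27% and 79.9%. E1126G had 14.7%, 19.6% and 65.8%, near the R749H values. The first 73-nt exon did not obey such a relation and is left out of these shares.

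**Figure D3:**
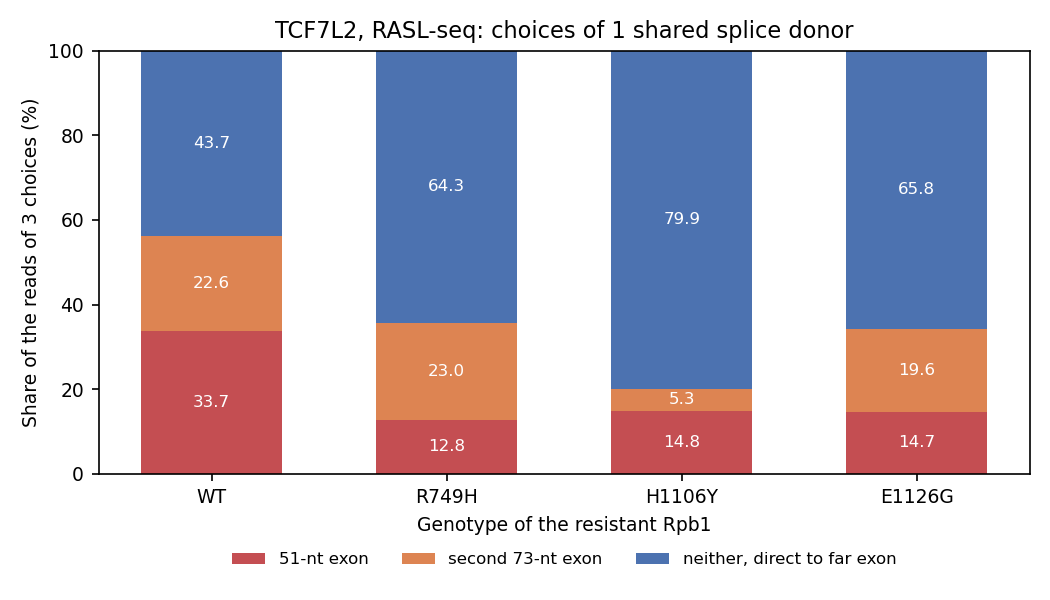
RASL-seq reads of 1 TCF7L2 splice donor divided among 3 choices, as percent of the 3 (vertical axis, from 0 to 100), for WT and the 3 mutants. Each bar is 1 pooled value per genotype without an error bar; the direct junction to the far exon is 43.7% in WT and 79.9% in H1106Y, and the second 73-nt exon is smallest in H1106Y at 5.27%.

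The direction of the 51-nt exon depended on the splice site it was measured against. Against the second 73-nt exon, a span of 2549 nt, RASL-seq gave 59.9% in WT, 35.8% in R749H, 73.8% in H1106Y and 42.9% in E1126G. H1106Y was the highest genotype here, although it lay far below WT against the far acceptor. The log2 change in the authors' deposited table was 0.91 in H1106Y (implied error 0.19, adjusted p = 2.5e-06) and -0.99 in E1126G (implied error 0.11, adjusted p = 2.1e-18), and their difference was 1.90 (SE 0.22; approximate z test, adjusted p = 1.3e-17). Against the first 73-nt exon, a span of 1850 nt, inclusion was 89.7% in WT, 88.4% in R749H, 97.4% in H1106Y and 87.2% in E1126G. H1106Y rose by a log2 of 2.08 in the authors' deposited table (implied error 0.31, adjusted p = 1.7e-10), whereas E1126G at -0.35 did not pass (adjusted p = 0.062). The difference between them was 2.43 (SE 0.35; approximate z test, adjusted p = 4.8e-11). On RNA-seq the exon against the second 73-nt exon stood at 63.6% in WT, 75% in R749H and 20.0% in E1126G, with an implied error of 1.83 on the R749H change, which did not pass (adjusted p = 0.85).

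The short spans of the 73-nt exons changed less. The first 73-nt exon between the donor and the second one was included at 23.8% in WT, 10.7% in R749H, 15.2% in H1106Y and 14.0% in E1126G on RASL-seq. Its decrease passed in H1106Y (log2 change -0.80 in the authors' deposited table, adjusted p = 0.0034) and in E1126G (-0.95, adjusted p = 9.8e-10). The difference between these mutants, 0.15 (SE 0.29), did not pass (approximate z test, adjusted p = 0.71). The second 73-nt exon, measured from the first one over 5562 nt, stood at 12.5% in WT, 13.8% in R749H, 11.2% in H1106Y and 8.22% in E1126G. Only the E1126G decrease passed among the tested comparisons (log2 change -0.67 in the authors' deposited table, adjusted p = 0.0015; H1106Y adjusted p = 0.63), and H1106Y minus E1126G was 0.49 (SE 0.37; approximate z test, adjusted p = 0.28).

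Farther 5′ in TCF7L2, a 69-nt exon went in opposite directions in H1106Y and E1126G. It lies at 114724315 to 114724383 in a span of 88417 nt, longer than 98.6% of all spans. RASL-seq inclusion was 14.4% in WT, 17.8% in R749H, 26.3% in H1106Y and 5.10% in E1126G. H1106Y thus lay above WT and E1126G below it. R749H, as a description, had a log2 change of 0.36 with an implied error of 0.21, and this change was not called. The log2 change in the authors' deposited table was 1.08 in H1106Y (implied error 0.21, adjusted p = 9.3e-07) and -1.65 in E1126G (implied error 0.18, adjusted p = 7.5e-19). Their difference was 2.73 (SE 0.28; approximate z test, adjusted p = 1.5e-21). RNA-seq gave 44.0% in WT, 31.3% in R749H and 16.0% in E1126G, with R749H on the other side of WT than on RASL-seq. The R749H change on RNA-seq did not pass (adjusted p = 0.55).

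Between these regions, an exon with 2 acceptors 3 nt apart, of 144 or 141 nt, was measured by RNA-seq alone in a span of 101057 nt (chromosome 10, 114849156 or 114849159 to 114849299). The 144-nt form was included at 11.9% in WT, 2.08% in R749H and 17.2% in E1126G, and the 141-nt form at 10.8%, 9.62% and 20.0% in that order. Neither R749H change passed (adjusted p = 0.16 and 0.93).

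LEF1, a family member known from lymphoid development and as a Wnt target itself, had 2 regions with rows on chromosome 4 (minus strand). An exon of 41 or 35 nt, with acceptors 6 nt apart, lies at 108984779 to 108984819 or 108984813 in a span of 15584 nt. On RNA-seq the 41-nt form stood at 82.6% in WT, 93.1% in R749H and 89.5% in E1126G. The 35-nt form stood at 71.5%, 88.0% and 81.8% in the same order, so WT was lowest for both. In R749H on RNA-seq the 41-nt form rose by a log2 of 1.49 in the authors' deposited table (implied error 0.55, adjusted p = 0.045). The 35-nt form had a log2 change of 1.54 there (implied error 0.58) and missed the threshold (adjusted p = 0.051). These 2 rows share their skipping junction and the donor end of the exon. The quotient of the 2 ratios was 1.89 in WT, 1.84 in R749H and 1.90 in E1126G. Reads over the shared donor may enter both ratios, so this quotient does not by itself give the choice of acceptor, which was not tested. RASL-seq measured the 41-nt form alone, with 42.5% in WT, 83.3% in R749H and 46.7% in E1126G. R749H was well above the other 2 genotypes, with a deposited log2 change of 2.76, and E1126G did not differ from WT beyond its implied error (0.24, implied error 0.38, adjusted p = 0.63). H1106Y had no row for LEF1.

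An 84-nt LEF1 exon, whose length is a multiple of 3, lies at 109002742 to 109002825 in a span of 3741 nt. On RNA-seq it was included at 32.0% in WT, 15.8% in R749H and 17.7% in E1126G. Both mutants lay below WT, but the R749H change did not pass (log2 -1.33 in the authors' deposited table, implied error 0.60, adjusted p = 0.12).

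TCF7, the founding T-cell factor, had a 73-nt exon of its own on chromosome 5 at 133480488 to 133480560, of the same length as the pair in TCF7L2. Of 15189 distinct exons in the 5 tables, 85 (0.560%) were 73 nt long. The TCF7 exon was nearly absent in WT on RASL-seq and differed in direction from its TCF7L2 counterparts. Against the downstream acceptor it was included at 1.23% in WT, 2.08% in R749H and 7.70% in E1126G. Against the upstream acceptor the values were 1.07%, 1.2955% and 4.48% in that order. In E1126G it rose by a log2 of 2.75 (implied error 0.28, adjusted p = 3.0e-21) and 2.12 (implied error 0.31, adjusted p = 6.1e-11) in the authors' deposited table. These levels stayed under 10%, so the increase was 6.47 and 3.41 points.

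The 2 acceptors behind the TCF7 exon are 23 nt apart (133481892 to 133481914), and the row of this segment gives the use of the upstream one. On RASL-seq it was 53.5% in WT, 61.8% in R749H, 48.6% in H1106Y and 64.0% in E1126G. E1126G rose by a log2 of 0.63 in the authors' deposited table (implied error 0.13, adjusted p = 6.1e-06), while H1106Y at -0.28 did not pass (adjusted p = 0.21). H1106Y minus E1126G was -0.91 (SE 0.24; approximate z test, adjusted p = 3.9e-04). On RNA-seq the segment stood at 20.5% in WT, 21.4% in R749H and 37.5% in E1126G, and R749H did not pass (adjusted p = 0.98). The 3 TCF7 rows of RASL-seq also share reads, since the segment's log ratio is the difference of the other 2 to a tolerance of 1e-09. As shares of the 3 choices, the 73-nt exon took 0.574% in WT, 0.804% in R749H and 2.91% in E1126G. A 93-nt TCF7 exon (133476487 to 133476579) stood at 20.8% in WT, 11.8% in R749H and 19.0% in E1126G on RNA-seq, and R749H did not pass (adjusted p = 0.71).

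**Figure D4:**
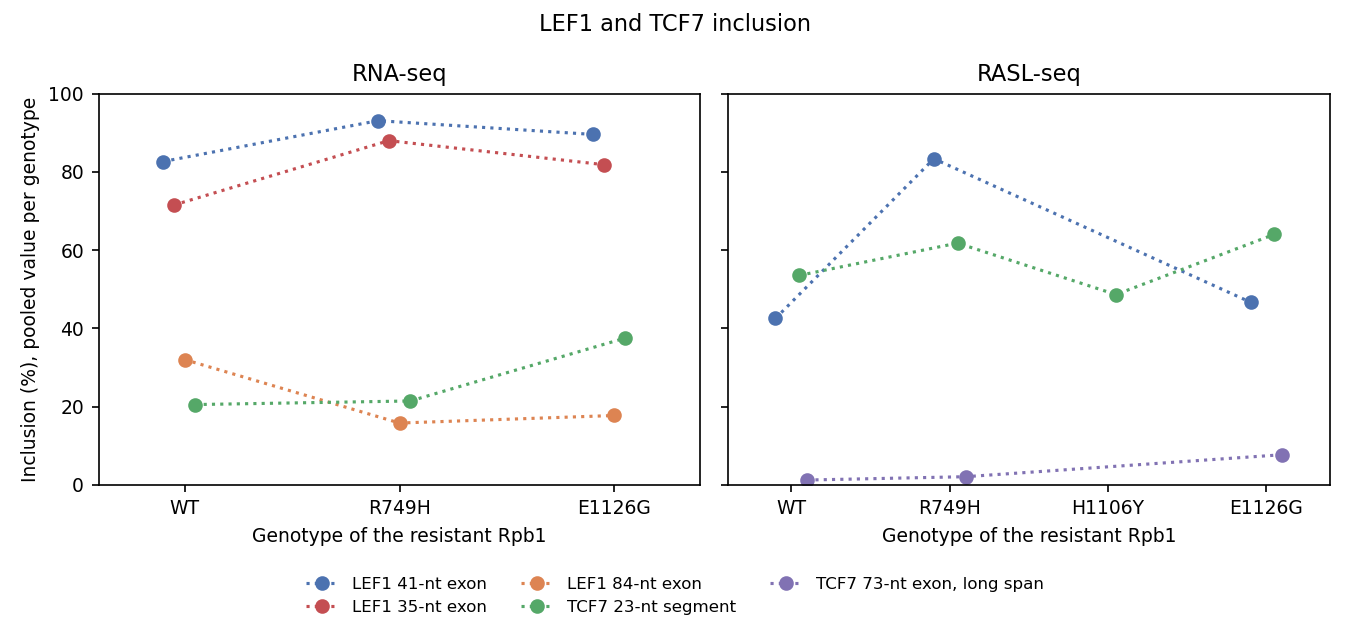
Inclusion (%) of LEF1 and TCF7 events by Rpb1 genotype, RNA-seq on the left and RASL-seq on the right. Each point is 1 pooled value per genotype without an error bar, dotted lines only join points of the same event, and a line without a point at H1106Y has no row there; the LEF1 41-nt exon is at 83.3% in R749H against 42.5% in WT on RASL-seq, and the TCF7 73-nt exon reaches 7.70% in E1126G.

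Counted over the family, 4 of 12 events passed in R749H on RNA-seq, 3 lower and 1 higher, where 15.1% of all events were called (8.04% lower and 7.07% higher). On RASL-seq 7 of 9 passed in H1106Y, 4 lower and 3 higher, against 61.9% of all events (38.2% lower and 23.7% higher). E1126G on RASL-seq had 10 of 12, against 47.5% of all events. Its 7 lower events were all of TCF7L2 and its 3 higher ones all of TCF7, with 33.6% lower and 13.9% higher over all events. In the comparisons that drew the genes in, 2 of 13 events were called in E1126G on RNA-seq, both lower (of all events 6.48%, with 2.2% higher and 4.27% lower). In R749H on RASL-seq 7 of 12 were called, 2 higher and 5 lower (of all events 44.1%, with 24% higher and 20.1% lower). Nothing is read from these 2 counts, because those values chose the genes. Since rows of an exon cluster share reads, these counts overstate the number of separate changes. The median log2 change of the family in the authors' deposited tables was -0.88 in R749H on RNA-seq against 0.00 over all events. On RASL-seq it was -0.28 in H1106Y and -0.73 in E1126G, against -0.33 and -0.37 over all events. Taken around those 2 medians, each called change kept its direction. The uncalled changes of the TCF7 segment and of the second 73-nt TCF7L2 exon over its short span in H1106Y turned to 0.04 and 0.14, and that of the 51-nt exon against the first 73-nt exon in E1126G to 0.02.

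**Figure D5:**
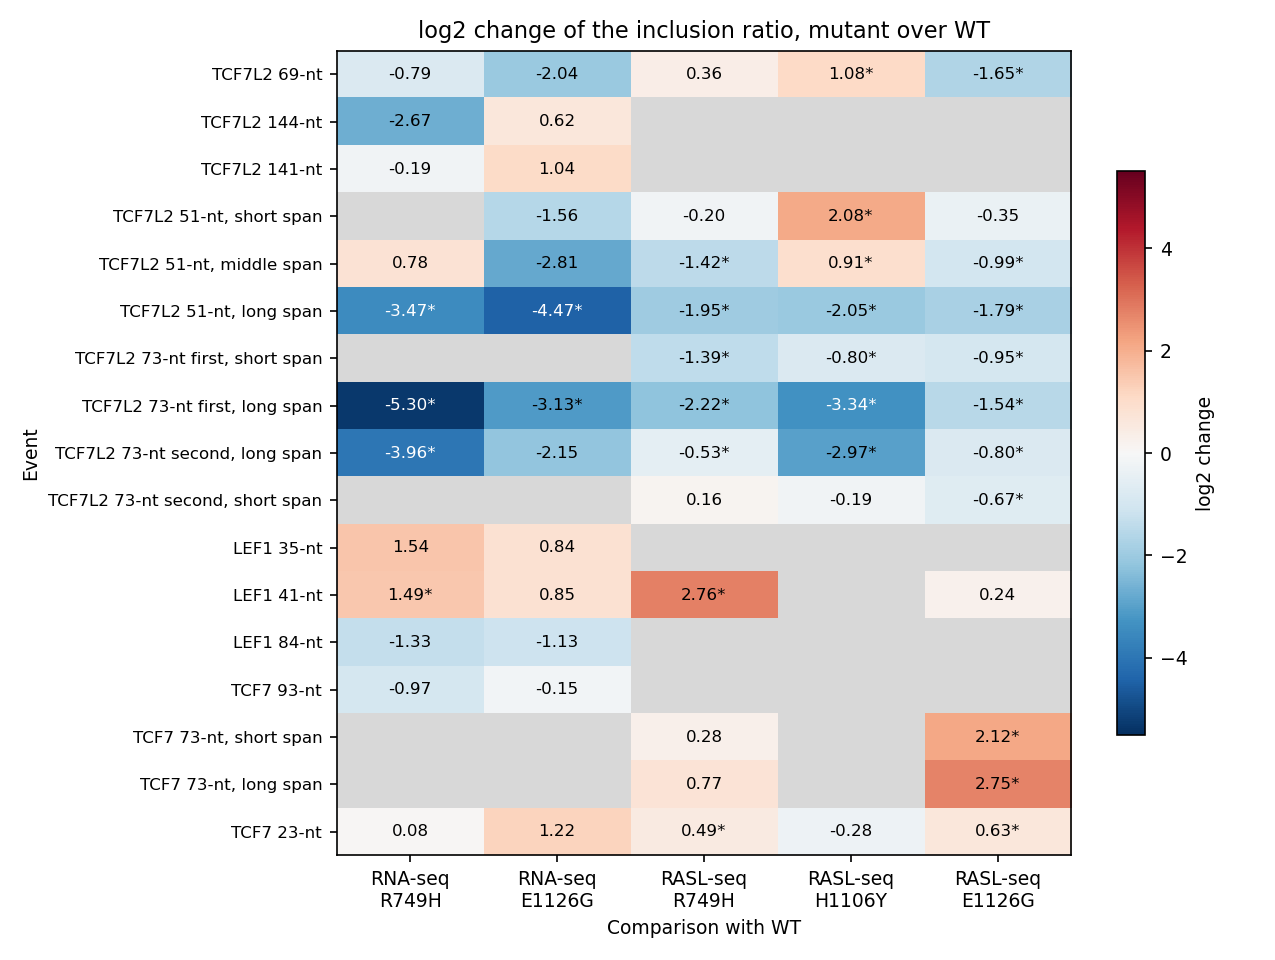
log2 change of the inclusion ratio, mutant over WT, for the 17 events (rows) in the 5 comparisons (columns), from blue (lower in the mutant) to red (higher). Grey marks an event with no row in that comparison and a star an adjusted p under 0.05, which is a description only in the RNA-seq E1126G and RASL-seq R749H columns; the 3 long-span TCF7L2 exons are blue in all 5 columns.

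Other genes of the Wnt pathway were taken from a list of 113 genes, of which 42 had a row. In R749H on RNA-seq 11 of their 70 events were called, 3 higher and 8 lower. This was a share of 15.7% beside the 15.1% of all events (7.07% higher and 8.04% lower). E1126G on RNA-seq had 3 of 72 (4.17%, against 6.48%), all lower, where all events had 2.2% higher and 4.27% lower. On RASL-seq 15 of 27 were called in R749H (55.6%, against 44.1%), 18 of 25 in H1106Y (72%, against 61.9%) and 16 of 28 in E1126G (57.1%, against 47.5%). R749H had 9 higher and 6 lower, where all events had 24% higher and 20.1% lower. H1106Y had 9 of each (23.7% and 38.2% of all events). E1126G had 1 higher and 15 lower (13.9% and 33.6% of all events), so its table leaned to lower as a whole. The median log2 change of the list in R749H, H1106Y and E1126G was 0.21, 0.07 and -0.74, beside 0.05, -0.33 and -0.37 for all events. Ligands and receptors had few rows. In R749H on RNA-seq 1 of 4 events of the ligands and 2 of 8 of the receptors were called.

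The cytoplasmic transducers made up most of the list's events on RASL-seq. Of their events 14 of 19 were called in R749H (73.7%, against 55.6% of the list and 44.1% of all events). In H1106Y 14 of 19 were called (73.7%, against 72% and 61.9%) and in E1126G 12 of 20 (60%, against 57.1% and 47.5%). The list contains these events. The 19 events came from 9 genes and the 20 from 10, so rows of the same gene are counted separately. On RNA-seq the transducers were near the share of all events. There 5 of 28 were called in R749H (17.9%, against 15.1% of all events) and 2 of 28 in E1126G (7.14%, against 6.48%). An 84-nt exon of CSNK1A1, the kinase that primes β-catenin for degradation, fell in all 5 comparisons (adjusted p from 9.8e-20 to 2.1e-04), and its WT levels lay far apart between the assays. On RNA-seq it stood at 21.0% in WT, 6.16% in R749H and 7.14% in E1126G, and on RASL-seq at 83.0% in WT, 59.0% in R749H, 29.8% in H1106Y and 63.6% in E1126G. GSK3B, the kinase that follows it, had a 39-nt exon at 45.0% in WT, 11.0% in R749H, 2.60% in H1106Y and 14.5% in E1126G on RASL-seq, and fell in each (adjusted p = 8.0e-07, 1.4e-09 and 2.9e-05). On RNA-seq this exon had a row for E1126G alone, at 14.1% in WT and 1.37% in E1126G, which was not called (adjusted p = 0.063). A 24-nt exon of CSNK1G3, a kinase of the Wnt receptor LRP6, fell in H1106Y from 78.7% to 25.0% on RASL-seq (adjusted p = 2.5e-10). There E1126G at 72.2% (adjusted p = 0.27) and R749H at 69.5% (adjusted p = 0.22) did not pass. On RNA-seq the CSNK1G3 exon fell from 70.1% to 45.4% in R749H (adjusted p = 0.0077), while E1126G at 61.2% did not pass (adjusted p = 0.58). A 64-nt exon of CSNK1D, another casein kinase, fell on RASL-seq from 93.1% to 78.5% in E1126G (adjusted p = 5.8e-33) and to 89.2% in H1106Y (adjusted p = 0.028), but rose to 96.0% in R749H (adjusted p = 0.011). On RNA-seq it fell from 92.9% to 78.1% in E1126G (adjusted p = 4.0e-07) and stood at 92.2% in R749H (adjusted p = 0.86).

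BTRC, the ubiquitin ligase subunit that binds phosphorylated β-catenin, had 2 exons whose direction differed between mutants. Its 108-nt exon stood on RASL-seq at 63.1% in WT, 79.0% in R749H, 77.4% in H1106Y and 48.8% in E1126G. It rose in R749H (adjusted p = 0.0058) and H1106Y (adjusted p = 0.019) and fell in E1126G (adjusted p = 4.7e-04). Its 78-nt exon in the same span stood at 87.4% in WT, 92.6% in R749H, 67.5% in H1106Y and 75.3% in E1126G, and rose in R749H (adjusted p = 0.024) but fell in H1106Y (adjusted p = 7.7e-06) and E1126G (adjusted p = 1.3e-08). A 186-nt exon of APC, the scaffold of the destruction complex, was included at 1.52% in WT and at 0.628%, 0.268% and 0.845% in R749H, H1106Y and E1126G. RNF146, which degrades AXIN, had a 128-nt exon that fell from 87.3% to 12.0% in R749H on RNA-seq (adjusted p = 1.7e-11). In E1126G it stood at 74.5%, which was not called (adjusted p = 0.45). Among nuclear partners, a 140-nt exon of CBY1, a β-catenin antagonist, fell from 95.9% to 59.5% in R749H on RNA-seq (adjusted p = 3.7e-04). In E1126G it stood at 58.8% (adjusted p = 0.010). Of the nuclear partners' events on RNA-seq, 2 of 23 were called in R749H (15.1% of all events) and 1 of 25 in E1126G (6.48% of all events). On RASL-seq 0 of 3 were called in R749H, 1 of 1 in H1106Y and 0 of 3 in E1126G (44.1%, 61.9% and 47.5% of all events).

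TNIK, a kinase that binds and phosphorylates TCF7L2, had a 24-nt exon with less inclusion in each mutant. RASL-seq gave 90.9% in WT, 47.7% in R749H, 56.3% in H1106Y and 71.1% in E1126G, and RNA-seq 48.5% in WT, 3.23% in R749H and 24.2% in E1126G. The decrease passed in R749H on RNA-seq (adjusted p = 0.0038) and in H1106Y (adjusted p = 8.7e-17) and E1126G (adjusted p = 4.4e-18) on RASL-seq. On RNA-seq the E1126G change was not called (adjusted p = 0.46). WT was the highest genotype in both assays, as in the TCF7L2 cluster. The exons of CSNK1A1, CSNK1G3 and GSK3B named above also had their highest level in WT in each comparison with a row, so this was not particular to TNIK. The CSNK1G3 decrease was called in only 2 of its 5 comparisons. GSK3B had no row for R749H on RNA-seq, and its E1126G change on RNA-seq was not called.

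Among 1424 events of other genes present in all 5 tables, the one closest to the first 73-nt TCF7L2 exon was a 52-nt exon of YLPM1. Its log2 changes differed from those of TCF7L2 by 0.69 on average, against a median of 2.89 over these events. A 78-nt exon of FAM135A (0.70), a 69-nt exon of ST7 (0.75) and a 30-nt exon of CLSTN1 (0.78) were also among the nearest. For the LEF1 41-nt exon, over the 4 comparisons that hold it and 1531 events, the nearest were exons of PCSK7 (0.21), MIB2 (0.27), THRAP3 (0.33), APP (0.33) and PMS1 (0.34), against a median of 1.59. For the TCF7 segment, over 5 comparisons, they were exons of SEC31A (0.27), PRKRIP1 (0.28), PKP4 (0.29), BRD8 (0.30) and TP53INP1 (0.32), against a median of 1.17. These distances describe likeness over comparisons that share WT libraries.

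The intron tables held no row inside the tested part of any of the 3 genes, of 2605 introns for R749H and 2615 for E1126G, so retention was not measured there.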

How the data were processed

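Exon skipping was analysed from 5 tables, and 2 intron tables were searched for rows inside the same genes. For each event the authors deposited the WT inclusion-to-skipping ratio as a natural log, the mutant's log2 change from it, and an unadjusted p-value; the labels do not state the test behind it. RNA-seq reads were mapped per replicate with TopHat 1.4.1 per the labels' protocols, and the submitters' processing notes name Bowtie 0.12.7, edgeR 3.7.17 and GRCh37. The tables named with a code were read as R749H because the labels of those samples list them. In all 12 and 13 RNA-seq rows of the family the natural-log reading gave ratios of whole numbers (relative tolerance 1e-09, denominator up to 300), against 0 with base 2. The WT value was identical across tables of an assay for all 13284 shared RNA-seq events.

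Inclusion was computed without correction for junction number, and coordinates are printed 1-based. The p-values were adjusted over each table with a threshold of 0.05 (Python 3.11.15, scipy 1.17.1). The implied error is the size of the log2 change divided by the normal z of the deposited p-value. The difference between H1106Y and E1126G was tested by an approximate two-sided z from these errors, adjusted over 1984 shared events, of which 49.2% were called; it treats the comparisons as independent. How far the deposited p-values include variation between cultures is unknown, and depth is unknown. Procedures were tested on simulated data.

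The members and lists were chosen with earlier results of these data known. Every member row is accounted for. Of the other Wnt genes, the 3 called events with the largest change in points per comparison were named, with those called in every table that holds them if at least 3. The lead event of a gene is the one in the most tables, then with the lowest p-value, and its 5 nearest events by mean absolute difference in log2 change were named, except 1 that is not reported here. All 113 list genes matched an identifier. The 16 GRO-seq libraries are not analysed here.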

Additional observations from a re-analysis of the deposited data

Results flagged for a closer look

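In RASL-seq, 4 events of the family had log2 changes of opposite sign in the slow H1106Y and the fast E1126G, with a difference that passed the approximate z test. The difference of the log2 changes, H1106Y minus E1126G, was 2.73 for the 69-nt exon of TCF7L2. For the 51-nt exon of TCF7L2 it was 2.43 against the first 73-nt exon and 1.90 against the second. For the 23-nt segment of TCF7 it was -0.91. R749H, the other slow form, had the sign of E1126G in 3 of these 4 events, with deposited log2 changes of -0.20 and -1.42 for the 51-nt exon in that order and 0.49 for the TCF7 segment, and the sign of H1106Y for the 69-nt exon (0.36). These R749H values are a description, and those of -0.20 (implied error 0.26) and 0.36 (implied error 0.21) were not called. The 51-nt exon accounts for 2 of the 4 events, so these are not 4 separate contrasts. In the TCF7 segment and in the 51-nt exon against the first 73-nt exon, the change of 1 of the 2 mutants did not pass by itself, and around the median of all events both changes had the same sign.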

How the results depend on the processing

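The number of family events called stayed within 1.5 times except in 3 cases. It was 1 in E1126G on RNA-seq at a threshold of 0.01 and under Benjamini-Yekutieli adjustment, against 2. It was 5 in E1126G on RASL-seq with a change of at least 10 points required, against 10. Wnt list events called went from 11 to 6 at 0.01 and to 5 under Benjamini-Yekutieli in R749H on RNA-seq. On RASL-seq they went in R749H from 15 to 9 under both of these settings and to 6 with 10 points required. With 10 points required they went from 18 to 11 in H1106Y and from 16 to 6 in E1126G, where WT inclusion of 5% to 95% left 10. Of single family events, the LEF1 41-nt increase in R749H on RNA-seq was lost under Benjamini-Yekutieli (adjusted p = 0.46) and at 0.01, and the 35-nt form passed with WT inclusion of 5% to 95% (adjusted p = 0.038) and over events of both RNA-seq tables (adjusted p = 0.048). With 10 points required, 7 calls on RASL-seq were lost. In E1126G these were the TCF7L2 69-nt exon (-9.32 points), the short spans of the first (-9.89) and second (-4.27) 73-nt exons, and both TCF7 73-nt rows (6.47 and 3.41). In H1106Y they were the 51-nt exon against the first 73-nt exon (7.66) and the first 73-nt exon over its short span (-8.63). No called change reversed around the median of all events, and taking out the shared WT error changed none of the 9 differences between mutants. Dividing each ratio by 2 moved the R749H change of the first 73-nt exon on RNA-seq from -55.7 to -40.3 points. No paired analysis was possible because the tables hold no value per library, and no replicate could be left out for the same reason. Depth is unknown, so no precision is printed for a level. The RNA-seq ratios of the family were ratios of whole numbers. In lowest terms, their largest WT denominator was 74. Against the far acceptor, the WT ratio was 2.45455 for the 51-nt TCF7L2 exon, 1.45455 for the first 73-nt exon and 1.72727 for the second. The 51-nt exon had 0.111111 in E1126G, and the first 73-nt exon had 0.037037 in R749H. These are ratios of small whole numbers. Some RNA-seq levels, those of the TCF7L2 cluster included, may therefore rest on few reads.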

Other observations

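WT levels of the same event differed between the assays by -33.0 to 40.1 points (RNA-seq minus RASL-seq) over the 8 events measured by both. The LEF1 41-nt exon stood at 82.6% on RNA-seq and 42.5% on RASL-seq, the TCF7L2 69-nt exon at 44.0% and 14.4%, and the TCF7 segment at 20.5% and 53.5%. The 51-nt exon of TCF7L2 against the second 73-nt exon was closest, with 63.6% and 59.9%. For the TCF7L2 69-nt exon R749H lay below WT on RNA-seq and above it on RASL-seq, and the RNA-seq change did not pass.

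Lengths divisible by 3 were found in 6 of the 12 distinct exons of the family (50.0%), against 43.8% of the 15189 distinct exons in the tables. The exons in TCF7L2 spans of 88417 and 101057 nt were flanked by introns of at least 12948 nt, while the span of all events had a median of 5212 nt.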
